A study of Mus musculus with 9 samples.

Results

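The SR splicing factors Srsf1, Srsf2, Srsf3, Srsf4, Srsf5, Srsf6, Srsf7, Srsf9, Srsf10 and Srsf11 were followed in the mediobasal hypothalamus (MBH), as whole genes and as single transcripts. These 10 genes were chosen by their symbols, among 15340 genes that passed the filter on low counts, and all 10 passed it. GENCODE M21, the annotation of the mouse genome build mm10, gives them 85 transcripts with values in the files, of which 57 passed the same filter. Of the other 28 transcripts, 7 had no count in any library, and none held more than 1.79% of its gene's counts. RNAseq had been performed on the MBH of wild-type C57Bl/6 male pups taken at weaning (P21). Dams of the control group (CTRL, 4 libraries from 4 litters) drank plain water. Dams of the emulsifier group (Emul, 5 libraries from 5 litters) drank water with 1% carboxymethyl cellulose (CMC) and 1% polysorbate 80 (P80) from before mating until weaning, and all dams were fed chow. Exposure in the womb, through milk and by the pups' own drinking cannot be told apart in this design. Nothing in the labels says whether the libraries share a batch, and litter and library are the same unit here.

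SR proteins bind short sequences in exons of a newly made transcript and recruit the spliceosome to the nearby splice sites. They carry a domain rich in arginine and serine that is phosphorylated by the SRPK and CLK kinases. Genes of this family are also known to splice their own transcripts in unproductive ways, by keeping an intron or by including a "poison" exon with a premature stop codon, and the second kind of transcript is a target of nonsense-mediated decay. Therefore a gene's total and the transcripts that encode its protein can move apart, and both were measured.

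Between 28245360 and 46067534 estimated counts were obtained per library, the lowest total belonging to CTRL 3. The SR genes held from 994 counts (Srsf9) to 12595 counts (Srsf5) in a library. Relative counting error was therefore largest for Srsf9, and its part in the spread between libraries was not measured. Markers of the tissue were present, Npy at 38.7 to 72.4 CPM and Pomc at 14.4 to 28.7 CPM, while Kiss1 was at or near 0 in every library. Bulk RNA cannot separate fewer cells of a type from less RNA per cell. Among markers of oligodendrocytes, 4 of 5 were lower in Emul at an unadjusted p under 0.05 by limma-voom (15.8% of all genes passed this threshold in either direction), and their summed level was 12379 to 15527 CPM in CTRL and 9447 to 13056 CPM in Emul. Among 5 neuronal markers, 4 were higher by the same measure, with sums of 2414 to 2590 CPM in CTRL and 2547 to 2742 CPM in Emul. Of 5 astrocyte markers 1 was lower, Gfap (-0.40, SE 0.09), and their sums did not overlap, at 1367 to 1503 CPM in CTRL and 1204 to 1344 CPM in Emul. Of 4 thalamic markers 1 was higher, Rora (0.26, SE 0.09), with sums of 126.1 to 155.9 CPM in CTRL and 129.7 to 279.9 CPM in Emul. Tcf7l2 (0.66, SE 0.36) and Prkcd (0.61, SE 0.32) had larger changes without passing that threshold, and Lef1 changed by 0.17 (SE 0.16). The Emul libraries were uneven, with Tcf7l2 at a log2 CPM of 6.37 in Emul 3 and 4.44 in Emul 5, beside 4.37 to 5.17 in CTRL. Mitochondrially encoded proteins held 4.51% to 5.52% of counts in CTRL and 5.71% to 6.75% in Emul. None of these markers passed an adjusted p of 0.05, and their part in the results on the SR genes was not tested.

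Per length, Srsf5 was the most abundant SR gene of the MBH at 357 TPM (332 to 375 over the 9 libraries). Srsf11 followed at 237 TPM (215 to 256) and Srsf2 at 160 TPM (151 to 174), and the ranges of these 3 genes did not overlap. Srsf7 (112 TPM), Srsf3 (109 TPM), Srsf6 (92.7 TPM) and Srsf10 (77.3 TPM) came next, each overlapping its neighbour in this order. Srsf4 (60.6 TPM) and Srsf9 (52.8 TPM) were lowest and overlapped each other. Srsf1 stood at 96.6 TPM, but 6 of its 7 transcripts had a copy of equal length and equal counts among transcripts without a gene in the annotation, so its reads were split evenly. With those copies added its level was 193 TPM (168 to 216), between Srsf11 and Srsf2, and it overlapped the range of both. No other SR gene had such copies. TPM values share a fixed sum within a library, so they were used to order genes and not to compare groups.

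The first comparison asked whether the genes as a whole differed between Emul and CTRL. No SR gene passed an adjusted p of 0.05 by limma-voom over all genes, and the fitted log2 fold changes lay between -0.11 (Srsf9) and 0.13 (Srsf11). At an unadjusted p under 0.05 there were 3 of 10 genes, Srsf11 higher and Srsf1 and Srsf9 lower in Emul, where 15.8% of all genes tested passed the same threshold (6.84% higher and 8.99% lower). The adjusted threshold was passed by 0.117% of all genes. The median log2 fold change was -0.02 over the 10 SR genes and 0.00153 over all genes, and 7 of the 10 were below 0.

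Srsf11 encodes an SR protein of the nuclear speckles and lies at chr3:158010473-158036639. Its log2 CPM was 7.67, 7.56, 7.61 and 7.60 in CTRL and 7.72, 7.67, 7.79, 7.76 and 7.77 in Emul, so that CTRL 1 reached the lowest Emul library and the others were apart. The log2 fold change was 0.13 (SE 0.03, unadjusted p = 0.0023, adjusted p = 0.137 by limma-voom), a level 9.56% higher. DESeq2 gave an adjusted p of 0.0233 for this gene, and its adjusted p over all alternatives ranged from 0.0233 to 0.648. With protein_coding transcripts alone the log2 fold change of Srsf11 was 0.06. In the authors' log2 CPM table the lowest Emul library (7.67) was above the highest CTRL library (7.63). The two-sided exact permutation test gave p = 0.0159 there. In its mean over the 9 libraries, that row is near a sum over transcripts with 92.2% of the gene's counts. Single libraries were not matched to that sum. The share of all genes without overlap in that table was not taken.

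Srsf1 encodes the founding member of the family, which promotes use of nearby splice sites, and lies at chr11:88047373-88053755. Its log2 CPM was 6.69, 6.68, 6.71 and 6.68 in CTRL and 6.62, 6.57, 6.59, 6.67 and 6.53 in Emul. It was the one SR gene whose groups did not overlap, which was so for 6.6% of all genes tested. Emul 4 (6.674) and CTRL 4 (6.678) were close. The SD was 0.014 over the 4 CTRL libraries and 0.054 over the 5 Emul libraries. Its log2 fold change was -0.09 (SE 0.03, unadjusted p = 0.0156, adjusted p = 0.214 by limma-voom). In the authors' table the Srsf1 groups overlapped.

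Srsf9 (chr5:115327177-115333080), a small SR protein close to Srsf1 in sequence, had a log2 CPM of 4.97, 4.99, 5.12 and 5.08 in CTRL and of 4.93, 4.89, 4.99, 4.96 and 4.84 in Emul. CTRL 1 was below the highest Emul library, so the groups overlapped. The log2 fold change of Srsf9 was -0.11 (SE 0.05, unadjusted p = 0.0306, adjusted p = 0.261 by limma-voom). Its unadjusted p was under 0.05 in 16 of 25 alternatives and ranged up to 0.30. Among the alternatives that lost the call were the authors' table (0.284) and fits without CTRL 3 (0.0894), CTRL 4 (0.0916), Emul 2 (0.0582) or Emul 5 (0.0657).

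The other 7 SR genes differed by less than 0.07 on the log2 scale. Srsf6 had a log2 fold change of -0.07 (SE 0.04) and Srsf2 one of -0.05 (SE 0.03), and of the alternatives run they passed an unadjusted p of 0.05 only with scaling by library size alone and without Emul 4 (Srsf6) or Emul 2 (Srsf2). Srsf4 (-0.03), Srsf5 (-0.02), Srsf3 (-0.00423), Srsf7 (0.01) and Srsf10 (0.03) had fold changes smaller than their SE. The 95% interval of Srsf5 ran from -0.07 to 0.04 and that of Srsf3 from -0.08 to 0.07. Libraries moved genes separately. Emul 5 held the lowest Srsf3 (6.98) and the highest Srsf10 (6.45) of its group. Over the 45 pairs of SR genes the Pearson correlation of log2 CPM across the 9 libraries ran from -0.71 (Srsf2 and Srsf11) to 0.78 (Srsf1 and Srsf9), a description over libraries that share the 2 groups.

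**Figure D1:**
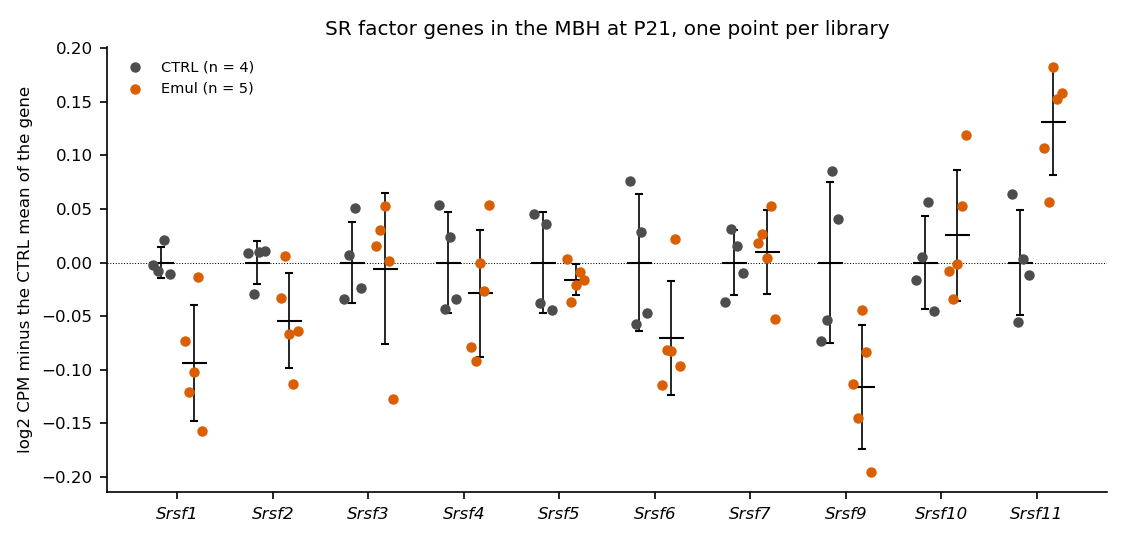
Log2 CPM of each SR gene in 4 CTRL (grey) and 5 Emul (orange) libraries, drawn as the difference from the gene's CTRL mean, with the mean and SD of each group in black. Srsf1 is the gene without overlap, with Emul below CTRL though Emul 4 is close to CTRL 4, and Srsf11 lies highest in Emul.

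The second comparison asked how the counts of each gene divided between protein_coding transcripts and those of other biotypes. In Srsf1, Srsf2, Srsf4, Srsf6, Srsf7 and Srsf10 most counts were on protein_coding transcripts in every library. In Srsf11, 65.5% to 74.05% of counts were on transcripts annotated as retained_intron, but none of them keeps a whole intron of the coding Srsf11-202. Srsf11-208 and Srsf11-213 cover part of its intron 2, and Srsf11-203 and Srsf11-218 have exons inside it. In Srsf9, 48.5% to 60.5% of counts were on a single nonsense_mediated_decay transcript, Srsf9-205. Srsf3 was spread over coding (36.5% to 44.0%), retained_intron (24.9% to 35.04%) and nonsense_mediated_decay (20.2% to 32.2%) transcripts. Srsf5 had 43.4% to 60.5% on protein_coding transcripts.

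Srsf5 and Srsf6 had a smaller share of counts off their protein_coding transcripts in Emul, and no other SR gene differed at an unadjusted p under 0.05. Neither passed the adjusted threshold, which was passed by 0.012% of the 8319 genes tested by limma. The 2 of 10 genes at an unadjusted p under 0.05 compare with 10.8% of all genes tested (7.0% in this direction). The same 2 genes had groups that did not overlap, Emul below CTRL, as had 3.47% of all genes. Only retained_intron against protein_coding transcripts gave the same 2 of 8 genes, beside 13.6% of all genes (9.39% lower in Emul). Nonsense_mediated_decay against protein_coding transcripts gave 0 of 7 at an unadjusted p under 0.05 by limma, and 7.15% of all genes. Over all genes the median change of this log2 ratio was -0.03 for other biotypes and -0.05 for retained_intron transcripts, and over the SR genes it was -0.02 and -0.10. The share of retained_intron transcripts among all counts was 4.48% to 4.72% in CTRL and 4.12% to 4.63% in Emul. Its part in the differences of Srsf5 and Srsf6 was not tested.

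**Figure D2:**
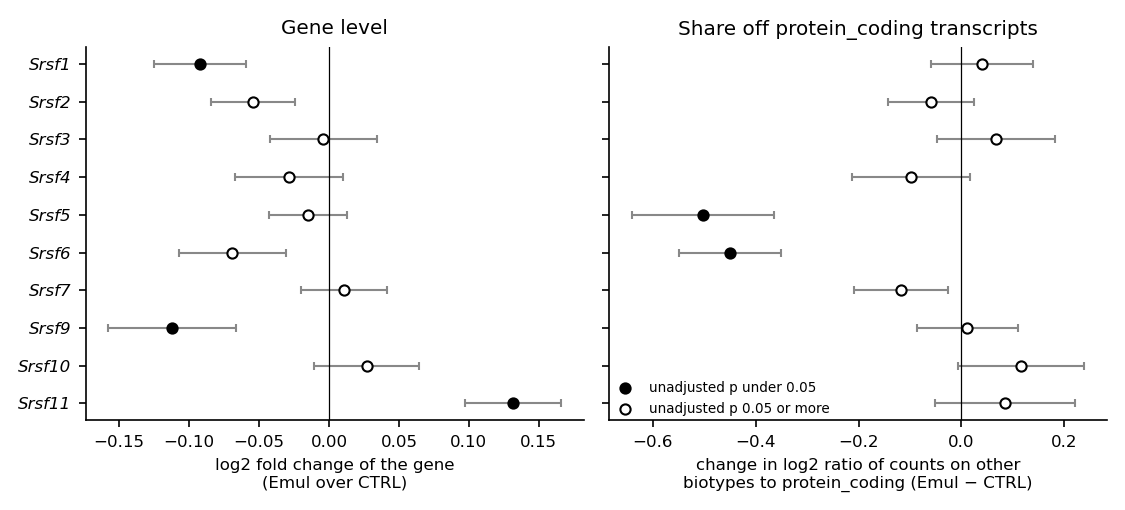
Change of each SR gene between Emul and CTRL with its SE, at left as a whole gene (log2 fold change) and at right as the log2 ratio of counts on other biotypes to counts on protein_coding transcripts. Srsf5 (-0.50) and Srsf6 (-0.45) lie apart at right while their gene changes at left are -0.02 and -0.07.

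Srsf6 (chr2:162931528-162937121) encodes an SR protein with paired RNA recognition motifs. It had 3 transcripts that passed the filter. Srsf6-203 (ENSMUST00000130411.6) is protein_coding. Srsf6-204 (ENSMUST00000193611.5) keeps intron 2 of the 5 introns of Srsf6-203, which has 1283 bases at chr2:162932143-162933425. Srsf6-201 (ENSMUST00000017065.14) includes an exon of 268 bases from inside that intron, at chr2:162932815-162933082, and is annotated as nonsense_mediated_decay. The borders of the intron and the exon up to its stop are shown because the counts that differed lie on transcripts that contain them. They are on the plus strand of mm10, taken from the GENCODE M21 transcripts.
Srsf6 intron 2, 5′ splice site, chr2:162932133-162932162: ggaagccgcaGTgagtccttacccccgcgc
Srsf6 intron 2, 3′ splice site, chr2:162933386-162933435: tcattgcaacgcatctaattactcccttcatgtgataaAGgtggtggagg
Srsf6 premature-stop exon, start to stop codon, chr2:162932815-162932966: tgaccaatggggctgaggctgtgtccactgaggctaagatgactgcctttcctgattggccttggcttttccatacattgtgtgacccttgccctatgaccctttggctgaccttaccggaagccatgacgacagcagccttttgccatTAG
Capitals mark the first and last bases of the intron (GT and AG) and the stop codon TAG. Each 5′ splice site is given with 10 exon and 20 intron bases, and each 3′ splice site with 40 intron and 10 exon bases. When the intron is kept, the frame of Srsf6-203 meets a TAG that starts at base 186 of the intron. In the exon the same frame ends at base 152.

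The share of Srsf6 counts on Srsf6-204, the intron-keeping transcript, was 26.9%, 28.01%, 25.6% and 27.2% in CTRL and 21.6%, 23.3%, 19.0%, 22.02% and 19.1% in Emul. All 5 Emul libraries were below all 4 CTRL libraries, which was so for 2.28% of all transcripts tested. The means were 26.9% ± 1.01 (SD, n = 4) and 20.98% ± 1.90 (SD, n = 5), with p = 0.00794 by the two-sided exact permutation test, the smallest that groups of 4 and 5 can give, and 0.374 adjusted over all transcripts. Counts on Srsf6-204 itself had a log2 fold change of -0.42 (SE 0.08, unadjusted p = 0.000337, adjusted p = 0.224 by limma-voom). The coding Srsf6-203 held 65.6%, 66.0%, 66.9% and 65.7% in CTRL and 72.8%, 73.8%, 71.1%, 69.9% and 75.3% in Emul, again without overlap. Its own counts had a log2 fold change of 0.08 (SE 0.04). The usage change of Srsf6-204 was -0.44 (SE 0.15, adjusted p = 0.186 by limma diffSplice). Its adjusted p was under 0.05 in 1 of 12 alternatives (0.0336 by limma diffSplice without Emul 2). With single libraries left out it ran up to 0.361, and over all alternatives up to 0.847. Srsf6-201, with the premature-stop exon, held 7.04% ± 0.716 in CTRL (SD, n = 4) and 6.41% ± 2.66 in Emul (SD, n = 5) and overlapped between the groups. Together the counts off the protein_coding transcripts of Srsf6 made 34.0% ± 0.626 (SD, n = 4) of the gene in CTRL and 27.4% ± 2.13 (SD, n = 5) in Emul. The log2 ratio of those counts to coding counts was lower by 0.45 in Emul (-0.45, SE 0.10, unadjusted p = 0.0013, adjusted p = 0.245 by limma). It lay between -0.50 and -0.40 when each library was left out in turn, always at an unadjusted p under 0.05.

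Srsf5 (chr12:80945504-80950507) also encodes an SR protein with paired RNA recognition motifs, and it was the most abundant of the family here. Its coding transcripts Srsf5-201, Srsf5-202 and Srsf5-205 share the same exons around intron 5 of 7. Srsf5-212 (ENSMUST00000153056.7) keeps this intron, which has 1229 bases at chr12:80947866-80949094, as do the minor Srsf5-209 and Srsf5-207. Srsf5-212 held more counts than any other Srsf5 transcript (37.9% of counts, and 21.9% per length as TPM). Srsf5-206 (ENSMUST00000125814.8) ends inside the same intron, in an exon at chr12:80948129-80948504. The borders of the intron, on the plus strand of mm10 and from the GENCODE M21 transcripts, are shown because Srsf5-212 and Srsf5-206, whose usage passed the adjusted threshold, differ there from the coding transcripts.
Srsf5 intron 5, 5′ splice site, chr12:80947856-80947885: cagctggcagGTttgttgaaatacagtttt
Srsf5 intron 5, 3′ splice site, chr12:80949055-80949104: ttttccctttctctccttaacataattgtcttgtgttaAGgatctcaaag
Capitals again mark the first and last bases of the intron. Read on in the frame of Srsf5-201, the kept intron meets a TGA that starts at its base 7. The intron of Srsf5 had 36.3% G and C and that of Srsf6 48.2%.

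Srsf5-212 held 42.5%, 39.9%, 46.2% and 39.5% of Srsf5 counts in CTRL and 38.5%, 34.8%, 37.7%, 30.9% and 34.1% in Emul. The groups did not overlap, though Emul 1 and CTRL 4 were close. The means were 42.03% ± 3.08 (SD, n = 4) and 35.2% ± 3.04 (SD, n = 5), with p = 0.0159 by the two-sided exact permutation test and 0.399 adjusted over all transcripts. In the usage test, which sets a transcript's change against that of the rest of its gene, Srsf5-212 fell, with a log2 fold change of -0.37 and an SE of 0.10 (limma diffSplice, adjusted p = 0.0485). This call was close to the threshold: it was lost with edgeR's diffSpliceDGE (adjusted p = 0.884), with lower-count transcripts included (0.087) and with CTRL 1 (0.156), CTRL 2 (0.0973), CTRL 3 (0.195), CTRL 4 (0.0644), Emul 4 (0.166) or Emul 5 (0.0574) left out.

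Srsf5-206, the short transcript that ends in intron 5, was a minor one at 1.41% of the gene's counts. Its share was 2.08%, 2.38%, 1.15% and 3.64% in CTRL and 0.592%, 1.29%, 0.69%, 0.513% and 0.103% in Emul. The groups overlapped by CTRL 3 and Emul 2 alone. Its usage fell, with a log2 fold change of -2.14 and an SE of 0.34 (limma diffSplice, adjusted p = 0.00012), and the adjusted p was at most 0.0038 in every alternative run, diffSpliceDGE and each library left out included. All these alternatives are usage tests that pool the transcripts of the gene, so none rests on the spread between litters alone. The transcript had 10.3 to 426 estimated counts per library. All 4 transcripts that cover intron 5 wholly or in part (Srsf5-206, Srsf5-207, Srsf5-209 and Srsf5-212), summed after these values were seen, made 46.2% to 52.03% of Srsf5 in CTRL and 35.01% to 44.01% in Emul. The estimates come from kallisto's division of reads among transcripts that overlap one another.

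The coding transcripts of Srsf5 held more of the gene in Emul, but none passed the adjusted threshold. Srsf5-202 held 12.6%, 11.9%, 10.4% and 13.0% in CTRL and 14.3%, 16.5%, 14.4%, 15.2% and 16.1% in Emul, without overlap (usage log2 fold change 0.40, SE 0.13, adjusted p = 0.124 by limma diffSplice). Srsf5-205, with another first exon, went from 8.50% ± 0.485 (SD, n = 4) to 10.8% ± 1.41 (SD, n = 5), with a usage change of 0.39 (SE 0.15). Srsf5-201, the leading coding transcript, was at 25.8% ± 2.35 in CTRL (SD, n = 4) and 28.7% ± 2.74 in Emul (SD, n = 5) and overlapped. All protein_coding transcripts together made 46.1%, 49.0%, 43.4% and 46.8% of Srsf5 counts in CTRL and 51.6%, 55.3%, 50.8%, 60.5% and 56.7% in Emul. The log2 ratio of other to coding counts was -0.50 (SE 0.14, unadjusted p = 0.00509, adjusted p = 0.275 by limma), and between -0.56 and -0.42 with each library left out. Computed from TPM, which counts transcripts per length, it was -0.44. The Srsf5 gene changed by -0.02 on the log2 scale, whereas its protein_coding transcripts alone changed by 0.23 (unadjusted p = 0.000658, adjusted p = 0.125 by limma-voom). The F test over all 8 Srsf5 transcripts gave an adjusted p of 0.000109 by limma diffSplice, where 1.97% of 9338 genes passed 0.05, and no other SR gene passed it (Srsf1 0.15, Srsf6 0.158, Srsf7 0.158).

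**Figure D3:**
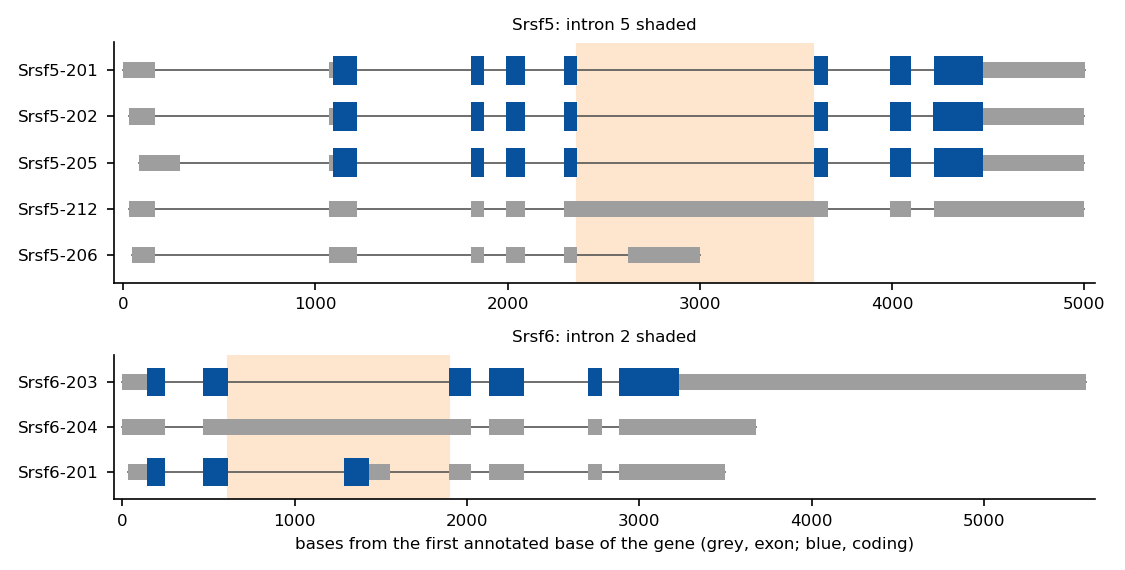
Exons (grey) and coding exons (blue) of the Srsf5 and Srsf6 transcripts, in bases from the first annotated base of each gene, with Srsf5 intron 5 and Srsf6 intron 2 shaded. Srsf5-212 and Srsf6-204 run through the shaded intron of 1229 and 1283 bases, and Srsf5-206 and Srsf6-201 have an exon inside it.

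**Figure D4:**
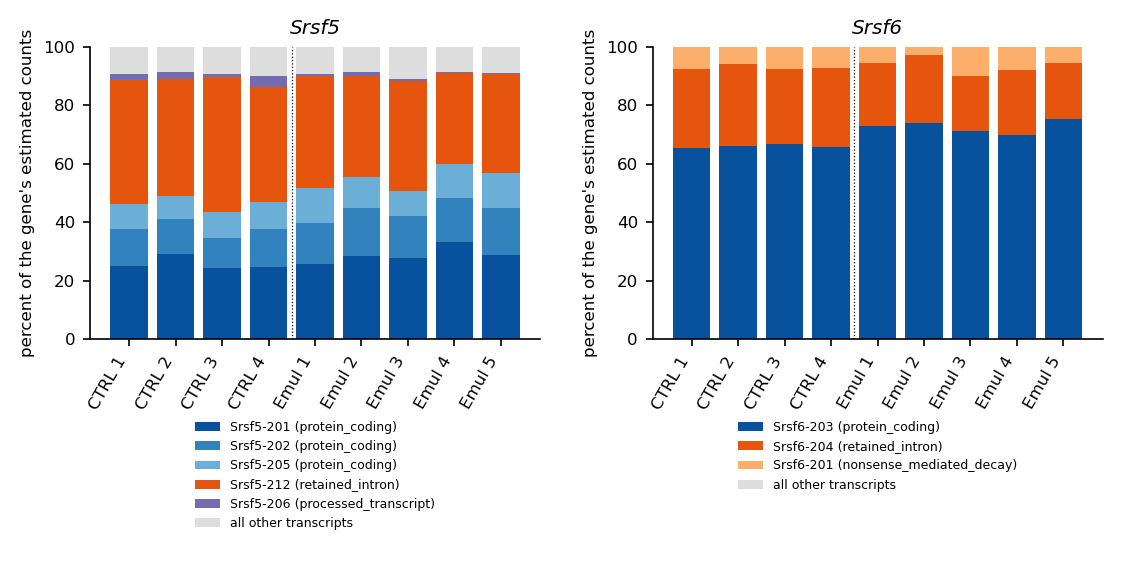
Percent of the gene's estimated counts on each transcript of Srsf5 (left) and Srsf6 (right) in every library, stacked to 100, with a dotted line between CTRL and Emul. Srsf5-212 and Srsf6-204 (dark orange) take 39.5% to 46.2% of Srsf5 in CTRL and 30.9% to 38.5% in Emul, and 25.6% to 28.01% of Srsf6 in CTRL and 19.0% to 23.3% in Emul.

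The third comparison took the usage of all 57 SR transcripts. At an unadjusted p under 0.05 by limma diffSplice there were 13 transcripts of 8 genes, 5 higher and 8 lower in Emul, beside 11.7% of all 34224 transcripts tested (5.74% higher and 5.98% lower). The adjusted threshold was passed by 3 of the 57, Srsf5-206, Srsf5-212 and Srsf1-202, and by 1.07% of all transcripts. Only Srsf5-206 kept its call without CTRL 1, without Emul 4 or with diffSpliceDGE. Groups did not overlap for 5 SR transcripts, beside 4.0% of all. Of 20 retained_intron transcripts 4 were lower and 1 higher at an unadjusted p under 0.05, beside 6.62% lower and 2.73% higher of all such transcripts. Of 22 protein_coding transcripts 3 were higher and 2 lower, beside 7.05% and 5.85% of all. The median usage change of SR retained_intron transcripts was -0.05, that of all such transcripts -0.06. As levels rather than shares, 13 of 57 SR transcripts had an unadjusted p under 0.05 by limma-voom, beside 10.8% of all 39840, and 8 when CTRL 3 was left out. No transcript of any gene passed the adjusted threshold by that test, and none of the 57 passed it by edgeR.

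Srsf1-202, a coding transcript of Srsf1 with 2.62% of its counts, held 3.72%, 3.17%, 2.87% and 3.13% in CTRL and 2.59%, 2.56%, 1.46%, 1.35% and 2.82% in Emul. The groups did not overlap, but CTRL 3 and Emul 5 were close. Its usage fell, with a log2 fold change of -0.68 and an SE of 0.17 (limma diffSplice, adjusted p = 0.032). With diffSpliceDGE its adjusted p was 1.0, and it was above 0.05 with CTRL 1 (0.12), CTRL 2 (0.062), CTRL 4 (0.0835), Emul 3 (0.136) or Emul 4 (0.135) left out. The main coding transcripts Srsf1-201 (41.2% of counts) and Srsf1-205 (39.8%) had usage changes of 0.04 and 0.05, within their SE. The decay transcript Srsf1-204 (6.3%) and the retained_intron transcript Srsf1-203 (6.24%) overlapped between the groups.

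Srsf3 and Srsf7 encode small SR proteins that also take part in mRNA export, and each has a premature-stop exon inside its intron 3. The exon of Srsf3 has 456 bases at chr17:29039454-29039909, and that of Srsf7 has 460 bases at chr17:80204622-80205081. The Srsf3 exon is shown because the transcript that includes it, Srsf3-201, differed in usage at an unadjusted p under 0.05, and the Srsf7 exon because it lies in the intron that Srsf7-206 and Srsf7-207 keep. Each is printed from its first base to its stop codon, in capitals, from GENCODE M21 on mm10.
Srsf3 premature-stop exon, start to stop codon, chr17:29039454-29039487, plus strand: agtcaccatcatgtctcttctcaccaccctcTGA
Srsf7 premature-stop exon, start to stop codon, chr17:80205054-80205081, minus strand: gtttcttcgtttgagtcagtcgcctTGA
Srsf3-201, which includes the exon and is annotated as nonsense_mediated_decay, held 23.5%, 20.2%, 26.4% and 25.8% of Srsf3 counts in CTRL and 28.5%, 26.9%, 23.9%, 26.2% and 32.2% in Emul. Emul 5 was the highest, and the groups overlapped. Its usage change was 0.29 (SE 0.12, unadjusted p = 0.0197, adjusted p = 0.29 by limma diffSplice), the opposite sign to Srsf3-204, which keeps the intron (-0.10, SE 0.12), and Srsf3-205, which covers part of it (-0.32, SE 0.18). Without CTRL 2 the change of Srsf3-201 was 0.18 (unadjusted p = 0.158 by limma diffSplice), and without Emul 5 its unadjusted p was 0.0508. These 3 transcripts together made 52.2% to 58.4% of Srsf3 in CTRL and 54.2% to 60.4% in Emul.

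In Srsf7 the intron-keeping transcripts Srsf7-207 (25.7% of counts) and Srsf7-206 (5.98%) moved in opposite directions, with usage changes of -0.40 (SE 0.15) and 0.88 (SE 0.25, adjusted p = 0.0703 by limma diffSplice). The change of Srsf7-206 ran from 0.51 without CTRL 3 to 1.25 without CTRL 4, and its adjusted p was 0.0145 without CTRL 4 and 0.0397 without CTRL 2. Without CTRL 3 that of Srsf7-207 was -0.27 (unadjusted p = 0.0656 by limma diffSplice). Srsf7-206 was at 2.37% and 1.45% in CTRL 1 and CTRL 3, where Srsf7-207 was highest at 30.9% and 34.6%. Both keep the same intron 3. Their sum, chosen after these values were seen, was 33.3%, 31.5%, 36.0% and 32.5% in CTRL and 31.05%, 32.3%, 33.1%, 27.1% and 30.5% in Emul, so the groups overlapped. Srsf7-203, which includes the exon shown, held 2.29% of counts and had a usage change of 0.00701 (SE 0.32). The coding Srsf7-201 (53.4% of counts) changed by -0.04 in usage (SE 0.13).

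A like exchange was seen in Srsf10, which encodes an SR protein known to repress splicing when it loses its phosphates. The coding Srsf10-202 held 15.9%, 5.51%, 14.6% and 11.8% in CTRL and 8.14%, 7.54%, 9.19%, 4.32% and 10.2% in Emul (usage change -0.60, SE 0.26, unadjusted p = 0.0248, adjusted p = 0.321 by limma diffSplice). The change of Srsf10-202 was -0.39 without CTRL 1, -0.36 without Emul 4 and -0.96 without CTRL 2. Its unadjusted p was above 0.05 without CTRL 1 (0.192), CTRL 3 (0.104), CTRL 4 (0.0736) or Emul 4 (0.162), and its adjusted p was 0.0258 without CTRL 2. Srsf10-204, with the same ends, was lowest where Srsf10-202 was highest, and their sum lay at 51.8% to 54.4% in CTRL and 53.2% to 55.9% in Emul. Srsf10-205, with a longer 3′ end, was at 30.0% ± 1.41 in CTRL (SD, n = 4) and 26.4% ± 1.24 in Emul (SD, n = 5), a usage change of -0.23 (SE 0.18). The non-coding Srsf10-207 and Srsf10-201 overlapped between the groups.

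In Srsf4, which encodes an SR protein with a long RS domain, the retained_intron transcript Srsf4-201 held 16.1% ± 1.90 in CTRL (SD, n = 4) and 13.5% ± 1.98 in Emul (SD, n = 5). Its usage change was -0.29 (SE 0.13, unadjusted p = 0.0349, adjusted p = 0.361 by limma diffSplice), and the coding Srsf4-202 (78.4% of counts) changed by 0.05. The unadjusted p of Srsf4-201 was above 0.05, up to 0.12, without CTRL 1, CTRL 2, CTRL 3, Emul 1, Emul 3 or Emul 5. The same direction held for Srsf2-203, which keeps the last intron of Srsf2, but its share of 31.3% ± 0.606 in CTRL (SD, n = 4) and 30.4% ± 1.39 in Emul (SD, n = 5) overlapped, with a usage change of -0.06 (SE 0.08) and of 0.03 (SE 0.08) for the coding Srsf2-201. In Srsf9, Srsf9-205 and the coding Srsf9-201 had usage changes of -0.00355 and 0.00468, with an SE of 0.24 each, the widest of the leading coding transcripts.

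Srsf11 was the gene in which all leading transcripts had a positive fold change as levels. The retained_intron transcripts Srsf11-208 (log2 fold change 0.19, SE 0.08, unadjusted p = 0.0338), Srsf11-203 (0.18, SE 0.06, unadjusted p = 0.014), Srsf11-218 (0.17, SE 0.11) and Srsf11-213 (0.12, SE 0.08) and the coding Srsf11-202 (0.06, SE 0.07) were each compared by limma-voom, with adjusted p-values of 0.378 or more. Their shares overlapped between the groups. The minor decay transcript Srsf11-206 (0.53% of counts) had a usage change of -0.88 (SE 0.44, unadjusted p = 0.0472). Without Emul 3 the change was -0.47 (unadjusted p = 0.186 by limma diffSplice), and the unadjusted p was also above 0.05 without CTRL 2 (0.0845), Emul 4 (0.0639) or Emul 5 (0.0528). Retained_intron transcripts made 69.3% ± 2.85 (SD, n = 4) of Srsf11 counts in CTRL and 70.8% ± 2.17 (SD, n = 5) in Emul.

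**Figure D5:**
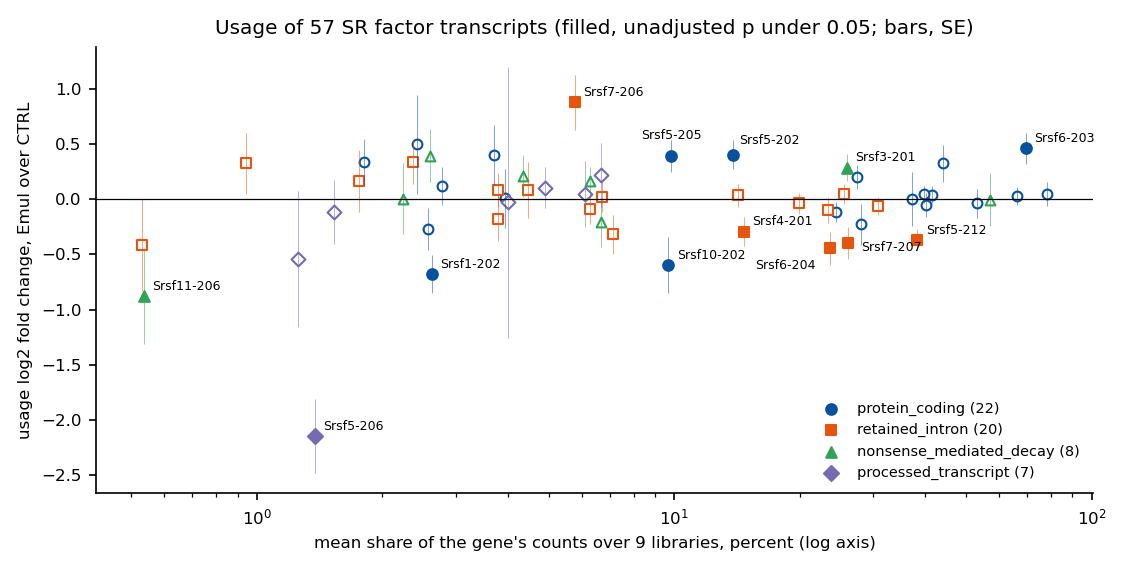
Usage change of the 57 SR transcripts between Emul and CTRL (log2 scale, with SE) against their mean share of the gene's counts in percent (log axis), by biotype, with filled points at an unadjusted p under 0.05. Srsf5-206 lies lowest at -2.14 and a share near 1.41%, and the retained_intron transcripts of Srsf5, Srsf6, Srsf7 and Srsf4 with filled points lie between -0.44 and -0.29, apart from Srsf7-206 at 0.88.

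Other genes of the splicing machinery were summarised by lists. Of 10 kinases and import factors of SR proteins, 8 had an unadjusted p under 0.05 by limma-voom, 6 lower and 2 higher in Emul (median log2 fold change -0.10), beside 8.99% lower and 6.84% higher of all genes. The CLK kinases Clk1 (-0.29, SE 0.04) and Clk4 (-0.25, SE 0.03) fell, both at an adjusted p of 0.0246, and Clk2 (-0.14) and Clk3 (-0.10) were lower without passing it. Of the Clk1 counts on retained_intron or protein_coding transcripts, the retained_intron share was 67.9% to 77.6% in CTRL and 80.02% to 86.9% in Emul. This difference had the opposite sign to those of Srsf5 and Srsf6 (unadjusted p = 0.000457, adjusted p = 0.139 by limma). Clk2 had the sign of Srsf5 and Srsf6, with a log2 ratio change of -0.64 (unadjusted p = 0.00706, adjusted p = 0.219 by limma). Clk3 had that sign too (-0.27, unadjusted p = 0.0587 by limma), and Clk4 changed by -0.00344. Of the kinases outside that family, named here after their values were seen, Srpk2 (0.10, SE 0.03) and Dyrk1a (0.13, SE 0.04) were higher, and Srpk1 (-0.10, SE 0.04) and Prpf4b (-0.09, SE 0.03) were lower, with adjusted p-values of 0.158 or more.

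In the remaining lists no gene passed the adjusted threshold, and their counts at an unadjusted p under 0.05 stand beside 15.8% of all genes (6.84% higher and 8.99% lower). Of 25 other SR and SR-related proteins 3 had an unadjusted p under 0.05, all lower: Tra2a (-0.19, SE 0.05), Clasrp (-0.13, SE 0.05) and Acin1 (-0.07, SE 0.03). Of 26 hnRNP proteins, which often oppose SR proteins, 4 were lower and 1 higher, among them Hnrnpl (-0.08), Hnrnph1 (-0.08) and Ptbp1 (-0.14). Of 25 neuronal and tissue splicing regulators 7 were higher and 2 lower, led by Khdrbs3 (0.14), Rbfox3 (0.12) and Celf4 (0.11), and Rbfox3 is also among the neuronal markers above. Of 30 core snRNP and spliceosome genes 4 were higher and none lower, led by Sf3b1 (0.09), Prpf19 (0.08) and Snrpd1 (0.16). Of 15 factors of nonsense-mediated decay 0 had an unadjusted p under 0.05 by limma-voom, with Upf1 at -0.07, Smg1 at -0.06 and Magohb at 0.17. The genes whose log2 CPM across the 9 libraries was most like the mean of the standardised SR genes were Olfr279, Afap1l2, Phf20l1, Isg20l2 and Zfp160, with Pearson r from 0.93 to 0.96. They are the highest of a search over all other genes tested, and whether such r values exceed chance was not tested. The SR genes themselves correlated from -0.71 to 0.78 in pairs, so their mean is not a profile that they share.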

How the data were processed

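The authors quantified strand-specific, paired-end mRNA libraries of 9 MBH samples with kallisto against mm10 (the submitters' processing notes name FastQC 0.11.9, kallisto 0.46.1 and edgeR 3.40.1). Per library they deposited estimated counts, not normalized, and TPM values for 119414 transcripts, and for the series a table of log2 CPM values for 14592 named genes. How transcripts were summed for that table is not given in the sources used here. In their means over the 9 libraries, its rows for Srsf3, Srsf7, Srsf9 and Srsf11 are near sums over part of the transcripts (96.6%, 53.4%, 42.9% and 92.2% of counts). Single libraries can differ from such sums. For Srsf5 that part holds 100% of counts, yet its log2 fold change was 0.0297 in the authors' table and -0.0152 in the summed counts.

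Transcripts were matched to GENCODE M21 (97.8% matched). Estimated counts were summed per gene, features were tested if 4 or more libraries exceeded a CPM of 1, and limma-voom on TMM-scaled libraries (limma 3.58.1, edgeR 4.0.16) gave the differences of Emul from CTRL. Log2 CPM values of single libraries used a prior count of 2. Usage was tested by diffSplice on 34224 transcripts, and it treats the transcripts of a gene as independent. For class shares, log2 of (counts on other biotypes + 0.5)/(counts on protein_coding transcripts + 0.5) was tested by limma with a trend on 8319 genes. P-values were adjusted by Benjamini-Hochberg over all features. Single values were compared by an exact permutation test (two-sided, every assignment of the group labels). Counts were rounded for edgeR's quasi-likelihood test and DESeq2 only. Scripts were tested on simulated counts.

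Named were the 10 SR genes, their transcripts with at least 5% of the gene's mean counts or an unadjusted usage p under 0.05, from each list the genes past the adjusted threshold or else the 3 with the smallest p, the CLK kinases, and the 5 genes most correlated with the SR genes. Other genes are shown as markers. The members and the lists were chosen with earlier results of these data known. Reads were divided among overlapping transcripts by kallisto, so shares of one gene are not independent, and no error of that division is in the files used here. P-values for whole genes, for transcript levels and for class shares measure the spread between litters. Those of diffSplice, its F test included, do not rest on that spread alone. They pool the transcripts of a gene as if independent, so they may be smaller than the litters alone would give.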

Additional observations from a re-analysis of the deposited data

Results flagged for a closer look

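Among 114 groups of 4 or 5 libraries examined (the log2 CPM of the SR genes, the shares of the named transcripts and the shares off protein_coding transcripts), 7 had a library far from the others by Dixon's ratio, the gap to the nearest library over the range of the group. Chance gives about 1 in 20, or 5.7 of 114. As log2 CPM, Srsf2 was low in CTRL 2 (7.17, the others 7.21; ratio 0.954), Srsf3 was low in Emul 5 (6.98, the others 7.11 to 7.16; ratio 0.719) and Srsf6 was high in Emul 4 (7.25, the others 7.12 to 7.15; ratio 0.763). As shares of the gene's counts, Srsf5-201 was high in CTRL 2 (29.3%, the others 24.2% to 24.9%; ratio 0.862) and Srsf10-205 was low in CTRL 2 (27.9%, the others 30.6% to 30.8%; ratio 0.922). Srsf4-202 was high in CTRL 4 (80.6%, the others 76.6% to 77.2%; ratio 0.836). The counts off protein_coding transcripts of Srsf4 give the same flag for CTRL 4 (19.4%, the others 22.8% to 23.4%; ratio 0.836), since they are nearly the rest of the gene.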

How the results depend on the processing

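DESeq2 called 1 SR gene at an adjusted p under 0.05 where limma-voom called 0, and scaling by library size alone gave 5 SR genes at an unadjusted p under 0.05 in place of 3. The diffSpliceDGE test gave 8 transcripts in usage in place of 13, and 1 past the adjusted threshold in place of 3. Without single libraries, the SR genes at an unadjusted p under 0.05 numbered 2 to 4, the transcripts 8 to 13, and the transcripts past the adjusted usage threshold 1 to 4. Nonsense_mediated_decay transcripts alone gave 0 genes in place of 2 at an unadjusted p under 0.05. Of 130 counts of calls under alternatives, 122 were within 1.5 times the values in the report.

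Some log2 fold changes turned their sign. Srsf5 turned to 0.23 and Srsf6 to 0.0652 with protein_coding transcripts only. Srsf5 turned to 0.0289 and Srsf4 to 0.0112 with lengthScaledTPM, to 0.0297 and 0.0133 in the authors' table, and to 0.0297 and 0.0119 with lengthScaledTPM over transcripts of older Ensembl numbers. Srsf3 turned to 0.0070 with sample quality weights and 0.025 with the replicate block, and Srsf7 to -0.0199 and Srsf10 to -0.00359 with library size alone. With each library left out in turn, the log2 fold change ran from -0.0303 to 0.000316 for Srsf5 (above 0 without CTRL 1), from -0.0183 to 0.0258 for Srsf3 (above 0 without CTRL 3 or Emul 5) and from -0.00186 to 0.0262 for Srsf7 (below 0 without CTRL 1). The log2 ratio of other to coding counts turned for Srsf4 to 0.085 from TPM, for Srsf7 to 0.0326, Srsf4 to 0.27 and Srsf11 to -0.36 with nonsense_mediated_decay transcripts only, for Srsf1 to -0.0251 and Srsf3 to -0.0756 with retained_intron transcripts only, and for Srsf9 to -0.0617 with transcripts of older Ensembl numbers. With each library left out it ran from -0.0137 to 0.0905 for Srsf1 (below 0 without CTRL 4), from -0.0267 to 0.0435 for Srsf9 (below 0 without CTRL 1 or Emul 4) and from -0.00028 to 0.141 for Srsf11 (below 0 without CTRL 2). The cause was not tested.

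Replicate numbers do not pair the samples (correlations of same-numbered libraries -0.163, -0.0146, 0.0214 and -0.0551, with 0 of 4 best matched by their own number). With the replicate block, in which Emul 5 has no partner and does not enter the difference, 2 SR genes, 11 transcripts, 13 transcripts in usage and 2 genes in class share had an unadjusted p under 0.05, and 2 transcripts passed the adjusted usage threshold, since Srsf5-212 came to 0.0518. Transcripts below about 39.4 mean counts were not tested.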
